A study of Morone chrysops with 54 samples.

Results

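The livers compared here came from juvenile white bass (Morone chrysops) fed a diet in which soybean meal took the place of part of the fish meal. The 9 libraries titled Diet 2 and the 9 titled Diet 1 were taken by their titles, 18 of the 54 libraries of the series, and every contig of the transcriptome whose count averaged 5 or more in these 18 was tested, which left 9130 of 20914. Diet 1, the control, held 30% fish meal and 37% soybean meal, and Diet 2 held 15% fish meal and 56% soybean meal. Diet 2 also held less wheat and canola oil and more menhaden oil, with protein and lipid kept alike, so that the parts of these ingredients in a difference between the groups cannot be told apart. The control is not free of soybean meal. The fish were fed to satiation for 60 days before the livers were taken. Each library is the liver of 1 fish, each diet was fed in 3 tanks, and the deposited libraries carry 3 T tags per diet with 3 fish each (T15, T7 and T8 with Diet 1 and T13, T2 and T6 with Diet 2). The sources used here do not say what the tag marks. The paper states that 3 fish were sampled from each tank. Whatever the tag marks, the p-values below over single fish cover the spread between fish and not that between tanks.

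The liver makes cholesterol and fatty acids from acetyl-CoA with NADPH, much of which the pentose phosphate pathway supplies, and it clears amino acid nitrogen and makes taurine from the sulfur amino acids. Fish meal brings cholesterol and taurine into the feed, whereas soybean meal holds hardly any of either. In many bony fishes exocrine pancreas lies along the portal veins inside the liver, so that a liver sample can hold pancreatic cells. These points are background and were not measured here.

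Total counts per library ran from 7514100 to 13731958 with Diet 1 and from 8260467 to 14444850 with Diet 2, and the ratio of the group means was 1.03 (two-sided exact permutation test over 48620 splits, p = 0.686). Levels are given as CPM, the counts scaled by the normalized library total, with the SD over 9 fish, log2 fold changes are those of Diet 2 relative to Diet 1, and the value after ± beside a log2 fold change is its standard error. The 8 hepatocyte markers were all present, with a summed level of 41133 to 71540 CPM with Diet 1 and 40007 to 63665 CPM with Diet 2, and 0 of the 8 passed the unadjusted call described below in either direction.

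Pancreatic RNA was present in every liver and differed in amount. The 7 markers of the exocrine pancreas took 1.10% to 14.8% of the counts with Diet 1 (median 10.1%) and 0.498% to 10.4% with Diet 2 (median 4.82%). Their mean log2 level, taken as an exocrine score, was 10.8 ± 1.34 with Diet 1 and 9.74 ± 1.32 with Diet 2, and the lowest fish were Diet 1 replicate 8 (7.93) and Diet 2 replicate 2 (6.58). All 7 markers had a negative fold change, and 4 were called lower, namely the acinar transcription factor basic helix-loop-helix protein 15 (-0.92 ± 0.42), pancreatic lipase (-1.46 ± 0.50), chymotrypsin A-like (-1.42 ± 0.59) and deoxyribonuclease I (-1.25 ± 0.51); the authors had listed 5 of the 7 for this comparison. Values for the others were -1.0 ± 0.51 for carboxypeptidase B, -0.80 ± 0.45 for elastase-1-like and -0.71 ± 0.39 for trypsin-2, and none was past an adjusted p of 0.05. The number called lower was 2 when replicate 4 or 7 of Diet 1 was left out and 7 when replicate 8 of Diet 1 or 7 of Diet 2 was. In bulk tissue such as this, fewer cells of a type and less RNA per cell cannot be told apart. With the score as a covariate, 67 of the 94 called contigs picked for naming kept the unadjusted call. The 4 called markers are among the 94 but were not refitted. The value with the score as a covariate stands beside some results below, and results without it may have moved too.

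The 2 endocrine pancreas markers were called lower. Insulin, the hormone of the endocrine pancreas, had 544 counts over the Diet 1 fish and 4 over the Diet 2 fish, with 138 counts in Diet 1 replicate 6, 397 in Diet 1 replicate 7 and at most 5 in each of the other 16 livers. Nkx-6.1, a transcription factor of insulin-producing cells, was -1.27 ± 0.57. The call of Nkx-6.1 held in 8 of 18 fits that left out a single fish, with a log2 fold change of -2.05 without Diet 2 replicate 7 and -1.02 without Diet 1 replicate 7, where it was not called. It was also lost without replicate 1, 3 or 6 of Diet 1 or replicate 1, 3, 5, 6, 8 or 9 of Diet 2. Vitellogenin B, an egg yolk precursor made in the liver, lay at 1.93 to 72.6 CPM (median 8.01) with Diet 1 and at 0.871 to 5.49 CPM (median 3.42) with Diet 2, and its fold change of -2.46 ± 0.59 had an edgeR adjusted p of 0.109. Vitelline membrane outer layer protein 1 (-1.57 ± 0.70) was called lower as well, whereas male-specific protein was -0.30 ± 0.25. The sex of the fish is not given in the labels, and its part in other results was not tested. The mean log2 level of these 3 sex markers was lowest in Diet 1 replicate 8 (4.87) and Diet 2 replicate 2 (4.12) within each group. The same 2 fish had the lowest exocrine scores. The mean of the sex markers was highest in Diet 1 replicate 9 (7.34) and Diet 2 replicate 7 (5.81). These fish had the highest exocrine scores of their groups, 11.9 and 11.2. A link of the sex markers with the exocrine score was not tested. Markers of intestinal epithelium had a summed level of 4.96 to 15.3 CPM with Diet 1 and 8.06 to 36.5 CPM with Diet 2. Of the 4 tested, claudin-15-like (4.34 ± 1.24) and maltase-glucoamylase, intestinal-like (1.51 ± 0.70) were called higher, while dipeptidyl peptidase 4-like (0.88 ± 0.47) and cadherin-related family member 5 (-0.24 ± 0.26) were not. Claudin-15-like had 19 counts over the 9 fish of Diet 1, all in replicate 4, and 405 over those of Diet 2, so that its fitted fold change rests on counts near 0. The 4 macrophage markers summed to 18.7 to 42.9 CPM with Diet 1 and 21.6 to 56.1 CPM with Diet 2, with fold changes of 0.073 to 0.35, among them macrophage-expressed gene 1 protein-like and neutrophil cytosol factors 1 and 4, and 0 of the 4 passed the unadjusted call. Hemoglobin subunit beta-A-like, of red blood cells, was 0.17 ± 0.52.

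**Figure D1:**
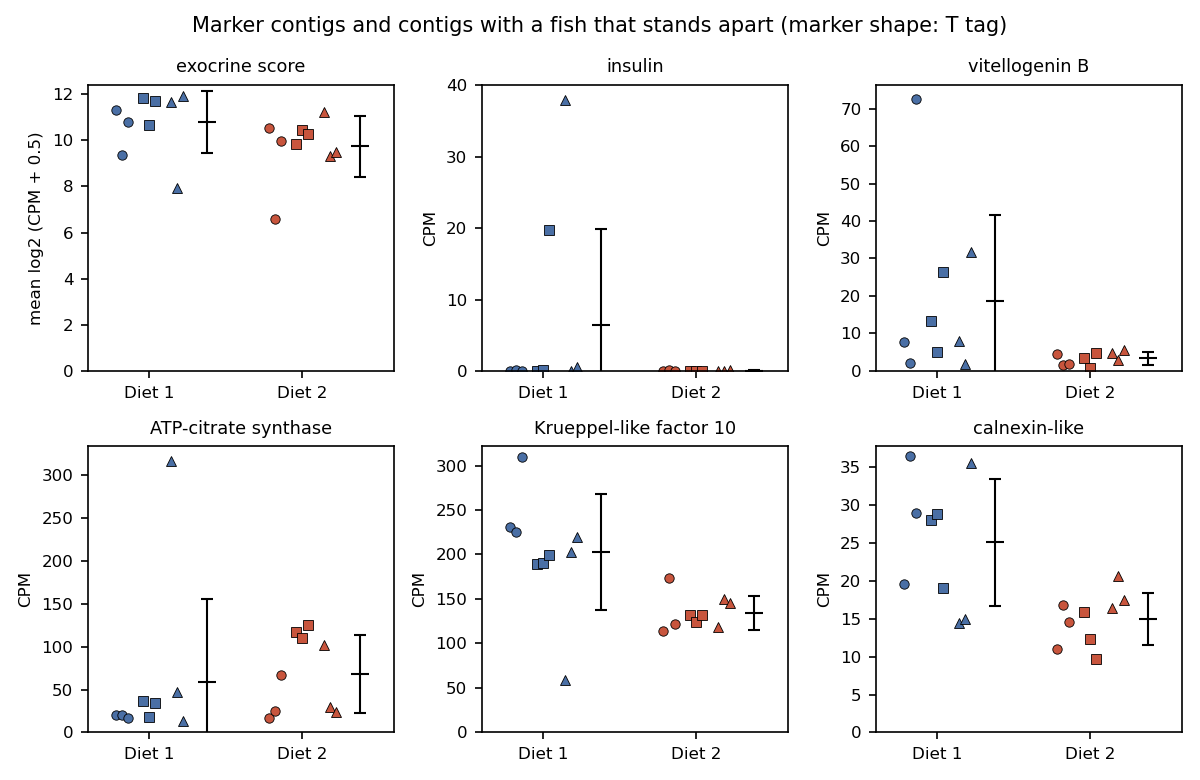
Exocrine score (mean log2 of CPM plus 0.5) and the levels of insulin, vitellogenin B, ATP-citrate synthase, Krueppel-like factor 10 and calnexin-like (CPM) in each of the 9 fish fed Diet 1 and the 9 fed Diet 2, with the mean and SD beside each group (the SD bar ends at the axis where it would pass below 0). The marker shape gives the T tag, and Diet 1 replicate 7 is the fish with insulin at 37.9 CPM, ATP-citrate synthase at 316 CPM and Krueppel-like factor 10 at 58.6 CPM.

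Some livers stood apart from the rest of their group. Diet 1 replicate 7 held the highest or lowest value of its group by a wide gap in many of the contigs named below, for example 316 CPM of ATP-citrate synthase against 47.2 CPM in the next fish. Diet 2 replicate 4 lay farthest from the median of its group (SD of its log2 differences 0.81) and had the fewest contigs with any count, 8742. Some results that rest on these fish are given with and without them, and the others only with all fish.

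Across all contigs tested, few differences between the diets passed the test. Differentially expressed genes (DEGs) were contigs with an edgeR quasi-likelihood p under 0.05 after Benjamini-Hochberg adjustment that also differed by over 1.5-fold. There were 4, of which 3 rose and 1 fell with Diet 2, or 0.0438% of those tested. With an unadjusted p under 0.05 and the same fold, a wider call used here only to describe groups of genes, 284 contigs passed (3.11%), of which 144 were higher (1.58%) and 140 lower (1.53%). The median log2 fold change of all contigs was -0.01. In 5 contigs (0.0548%) the 9 fish of one diet did not overlap those of the other. Among the 971 contigs that have a name, 134 were called higher (13.8%) and 130 lower (13.4%), since names were taken from tables in which the authors listed contigs called in these same libraries. Counts of named contigs below are descriptions. The authors had listed many list members for this same comparison, so these 2 shares are too low to measure those lists by. Their table held 9 of 15 growth factors and immediate regulators and 7 of 10 contigs of fatty acid oxidation and lipolysis. It held 7 of 14 in both the glutathione and the immune receptor list. For amino acid nitrogen it held 6 of 13, for the lysosome 6 of 14 and for complement 4 of 8. It held 4 of 7 contigs of the pentose phosphate pathway, 4 of 10 of glucose and glycogen and 4 of 11 of DNA replication. For glycerolipid synthesis it held 3 of 8, for fatty acid synthesis 2 of 6 and for iron handling 2 of 7. Among the markers it held 2 of 2 for endocrine pancreas, 2 of 3 for sex and 2 of 4 tested for intestinal epithelium.

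The number of DEGs moved with the choice of test and fish. DESeq2 called 41 of the 3515 contigs to which it gave an adjusted p (1.17%), and 47 of 9082 contigs (0.518%), 28 of them higher, were DEGs by edgeR without Diet 1 replicate 7. With any of the other fish removed there were 1 to 17, the highest being 17 (Diet 2 replicate 2 left out) and 16 (Diet 1 replicate 8). There were 2 when replicate 3 of Diet 1 or 8 of Diet 2 was left out, and 1 when replicate 1 of Diet 1 or 4, 6 or 9 of Diet 2 was. When the counts of the 3 fish of each T tag were summed, so that 3 sums were compared with 3, edgeR called 0 DEGs, with 310 contigs past the unadjusted call. With the exocrine score as a covariate 10 contigs were DEGs and 308 passed the unadjusted call (3.37%), 63.0% of them higher against 50.7% without it.

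Of the 4 DEGs, the 3 that rose belong to the lysosome and to endocytosis. Alpha-N-acetylglucosaminidase, a lysosomal enzyme that degrades heparan sulfate, lay at 24.5 to 32.5 CPM (median 27.4) with Diet 1 and at 34.4 to 51.6 CPM (median 41.2) with Diet 2, so that the 2 groups did not overlap. Its mean rose from 28.1 ± 2.68 to 42.6 ± 5.87 CPM (log2 fold change 0.60 ± 0.090, edgeR adjusted p = 0.00742). The change is close to the fold threshold: in 5 fits it came under 1.5-fold (0.55 to 0.58, adjusted p at most 0.0458), those that left out replicate 1 or 7 of Diet 1 and those that left out replicate 4, 6 or 9 of Diet 2.

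Granulins isoform X1, a secreted glycoprotein that is cut into granulin peptides in the lysosome, lay at 65.4 to 102 CPM (median 90.1) with Diet 1 and at 103 to 154 CPM (median 129) with Diet 2, again without overlap. The mean rose from 86.5 ± 11.8 to 130.4 ± 17.7 CPM (0.59 ± 0.10, adjusted p = 0.0212). DESeq2 gave a log2 fold change of 0.58 (adjusted p = 5.92e-05), under the fold threshold, so that granulins isoform X1 was not a DEG there. With single fish left out, the call was kept in 9 of 18 fits. It was lost when replicate 1, 3, 5 or 6 was taken from Diet 1, or replicate 2, 4, 6, 8 or 9 from Diet 2, and granulins isoform X1 then had a log2 fold change of 0.55 to 0.59 and an adjusted p of at most 0.0834. Disabled homolog 2, a clathrin adaptor for the uptake of receptors of the low-density lipoprotein family, lay at 12.2 to 27.3 CPM (median 22.97) with Diet 1 and 27.8 to 48.6 CPM (median 36.6) with Diet 2. The groups were apart by little, with 27.3 CPM in the highest fish of Diet 1 and 27.8 CPM in the lowest of Diet 2. Its mean rose from 20.7 ± 4.80 to 36.7 ± 7.57 CPM (0.82 ± 0.15, adjusted p = 0.0325). The call was lost in 11 of 18 fits, those without replicate 1, 3, 4 or 5 of Diet 1 and those without replicate 1, 3, 4, 5, 6, 8 or 9 of Diet 2. The log2 fold change of disabled homolog 2 was 0.76 to 0.84 in these and its adjusted p 0.0569 to 0.0969.

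Tetraspanin-18-like isoform X2, a membrane protein of the tetraspanin family, was the DEG that fell. It lay at 2.77 to 17.6 CPM (median 13.5) with Diet 1 and at 2.08 to 4.22 CPM (median 3.29) with Diet 2. In Diet 1, 8 fish exceeded the highest of Diet 2, and the remaining one, replicate 7 at 2.77 CPM, was within the Diet 2 range. The mean fell from 11.96 ± 5.35 to 3.25 ± 0.707 CPM (-1.87 ± 0.27, adjusted p = 0.00742), and the call held in all 18 fits that left out a single fish (-2.0 without Diet 1 replicate 7). DESeq2 gave it no adjusted p. By T tag the means were 16.6 CPM in T15, 11 CPM in T7 and 8.21 CPM in T8 with Diet 1, against 3.74 CPM in T13, 2.95 CPM in T2 and 3.06 CPM in T6 with Diet 2. The 3 tags of Diet 2 were thus alike and all under those of Diet 1.

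With the exocrine score as a covariate, tetraspanin-18-like isoform X2 (-1.88), alpha-N-acetylglucosaminidase (0.60) and disabled homolog 2 (0.83) were still DEGs, and granulins isoform X1 had a log2 fold change of 0.55 and an adjusted p of 0.052. None of the 4 was a DEG with the T tag sums, where their log2 fold changes were -1.84 for tetraspanin-18-like isoform X2, 0.60 for alpha-N-acetylglucosaminidase, 0.58 for granulins isoform X1 and 0.80 for disabled homolog 2 and the adjusted p was 0.211 to 0.231. The fold changes of the 4 were thus close to those over single fish, and the calls were lost in the test of 3 sums against 3.

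**Figure D2:**
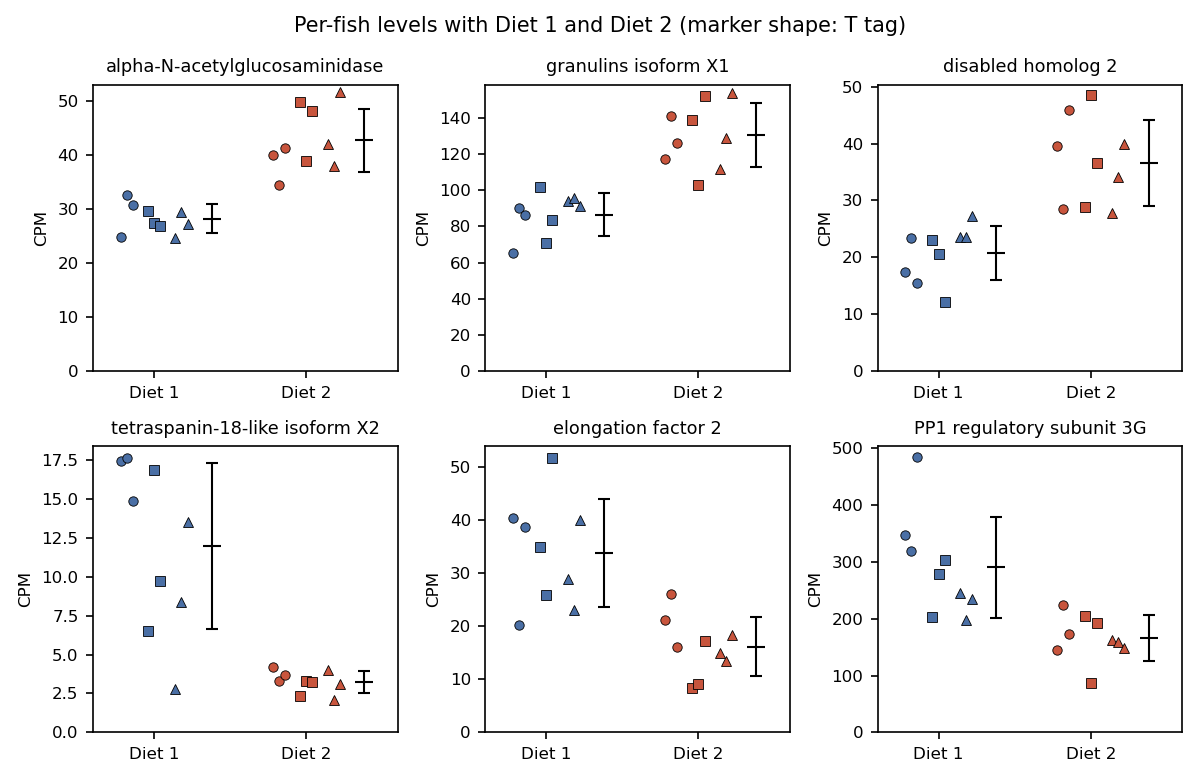
Levels (CPM) of the 4 DEGs and of elongation factor 2 and protein phosphatase 1 (PP1) regulatory subunit 3G in each of the 9 fish fed Diet 1 (blue) and the 9 fed Diet 2 (red), with the mean and SD beside each group and the marker shape giving the T tag. In the 3 upper panels every Diet 2 fish is above every Diet 1 fish, and in tetraspanin-18-like isoform X2 the Diet 1 fish at 2.77 CPM is the only one of its group within the Diet 2 range of 2.08 to 4.22 CPM.

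The lysosome list held further members that were not DEGs. Of its 14 contigs, 5 were called higher, 2 lower and 7 neither, with a median of 0.26. The 5 were the 3 DEGs that rose and the 2 contigs of GPNMB. Both contigs of GPNMB, a glycoprotein of phagocyte and pigment cell lysosomes in mammals, were called higher (1.67 ± 0.62 for isoform X1 and 1.34 ± 0.60 for isoform X2), and reads of one can count for the other. Both start from low counts, with T tag means in Diet 1 of 0.794 to 1.21 CPM for isoform X1 and 0.379 to 1.15 CPM for isoform X2. With single fish left out, the call held in 18 of 18 fits for isoform X1 and in 8 of 18 for isoform X2. Cathepsin S, a protease of antigen-presenting cells, was called lower (-0.69 ± 0.16) and went from 21.7 ± 3.97 to 13.5 ± 4.04 CPM, and all 9 fish of Diet 2 were under the Diet 1 median. Macrophage mannose receptor 1 was the other one called lower (-2.28 ± 0.68), at 0.203 to 5.99 CPM (median 1.32) with Diet 1 and 0 to 0.715 CPM (median 0.393) with Diet 2, and it was -1.43 and not called with the exocrine score as a covariate. Dipeptidyl peptidase 2 was 0.39 ± 0.12, under the fold threshold. The number called higher in the lysosome and phagocyte list was 2 when replicate 1 of Diet 1 or 4 of Diet 2 was left out, and 3 when replicate 7 of Diet 1 or replicate 2, 6 or 9 of Diet 2 was.

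After the DEGs, the named contigs with the smallest p were of varied function, and none of them was past an adjusted p of 0.05. Among those called higher, matrix metalloproteinase-16-like isoform X1, a protease of the cell surface, lay at 0 to 1.40 CPM (median 0.382) with Diet 1 and 0.650 to 9.03 CPM (median 2.65) with Diet 2 (3.07 ± 0.60, adjusted p = 0.0677), so that its fold change starts from under 1 CPM. Cytochrome P450 2K1-like, of a family that hydroxylates fatty acids in trout, went from 86.1 ± 41.5 to 242 ± 135 CPM (1.49 ± 0.32, adjusted p = 0.0842). In both contigs all 9 fish of Diet 2 exceeded the Diet 1 median. The others were oxidative stress-induced growth inhibitor 2-like (0.88 ± 0.18), medium chain fatty acyl-CoA hydrolase precursor (0.92 ± 0.21) and a DUF1725 domain-containing protein (0.68 ± 0.16). With a positive fold change but under the fold threshold, and so not called, were tetraspanin-1-like (0.43 ± 0.095) and nuclear factor erythroid 2-related factor 1 isoform X1 (0.42 ± 0.10), a transcription factor that acts on proteasome genes. The unnamed contigs with the smallest p were GAZY01149300.1 (0.38 ± 0.063, adjusted p = 0.0209) and GAZY01154611.1 (0.49 ± 0.099), both without overlap between the diets and both under 1.5-fold.

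Among those called lower, elongation factor 2, which moves the ribosome along the message, went from 33.8 ± 10.1 to 16.1 ± 5.56 CPM (-1.06 ± 0.21, adjusted p = 0.0677), with all 9 fish of Diet 2 under the Diet 1 median. Carbonic anhydrase 1, which hydrates carbon dioxide in the cytosol, went from 124 ± 56.9 to 53.3 ± 21.9 CPM (-1.22 ± 0.28). Protein C8orf4 homolog (-1.45 ± 0.32) and GSK-3-binding protein-like, an activator of Wnt signalling in Xenopus (-0.64 ± 0.14), had adjusted p-values of 0.0842 and 0.0918. Gamma-synuclein isoform X1 lay at 0.0678 to 80.8 CPM (median 3.95) with Diet 1 and under 1.1 CPM in every fish of Diet 2. Its fold change of -4.44 ± 1.02 was -3.17 without Diet 1 replicate 7, the fish with 80.8 CPM, and -1.88 with the exocrine score as a covariate. The unnamed contigs with the smallest p and a negative fold change, GAZY01166515.1 (-0.36 ± 0.083) and GAZY01160264.1 (-0.46 ± 0.11), were under the fold threshold and not called.

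Without Diet 1 replicate 7, the added DEGs included elongation factor 2, cytochrome P450 2K1-like, matrix metalloproteinase-16-like isoform X1 and Krueppel-like factor 10, a transcription factor that represses glucose production in mouse liver, with edgeR adjusted p-values of 0.00576 to 0.0352. Krueppel-like factor 10 lay at 189 CPM or more in 8 fish of Diet 1 and at 58.6 CPM in replicate 7, against 114 to 173 CPM (median 132) with Diet 2.

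Contigs of cholesterol synthesis and uptake were higher with Diet 2 at the unadjusted level. All 8 members of the sterol synthesis and LDL uptake list had a positive fold change, 7 were called higher and the median was 0.71, with adjusted p-values of 0.292 to 0.584 by edgeR. The authors had listed 7 of the 8 for this comparison, so the count is no independent evidence of a direction. Lathosterol oxidase-like, a late enzyme of cholesterol synthesis, lay at 1.35 to 9.30 CPM (median 4.77) with Diet 1 and 2.61 to 15.5 CPM (median 8.73) with Diet 2 (1.04 ± 0.34), with 7 of 9 fish above the Diet 1 median. The isomerase that shifts the sterol double bond (3-beta-hydroxysteroid-Delta(8),Delta(7)-isomerase) went from 71.1 ± 34.1 to 129 ± 53.8 CPM (0.86 ± 0.28), and all 9 fish were above that median. Low-density lipoprotein receptor-like, which takes up cholesterol-rich particles, was 0.72 ± 0.25. The groups overlapped in every member.

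Further up the pathway, acetoacetyl-CoA synthetase, which feeds ketone bodies into it, was 0.83 ± 0.34, and lanosterol 14-alpha demethylase, which acts on the first sterol, was 0.69 ± 0.30 from 152 ± 74.3 to 245.2 ± 127 CPM. Ergosterol biosynthetic protein 28, a scaffold of sterol enzymes in yeast, was 0.64 ± 0.25. HMG-CoA reductase, the rate-limiting enzyme, was 0.71 ± 0.32, and emopamil-binding protein-like, 0.36 ± 0.19, was the member not called; these 2 were added to the text after their values were seen. The call depended on single fish: in the sterol synthesis and LDL uptake list 3 were called higher when Diet 2 replicate 6 was left out, and 4 when replicate 2 of Diet 1 or replicate 4 or 7 of Diet 2 was. By T tag the mean log2 level was 4.83 in T15, 5.34 in T7 and 5.48 in T8 with Diet 1, and 5.50 in T13, 6.41 in T2 and 5.87 in T6 with Diet 2. The lowest tag of Diet 2 was thus level with the highest of Diet 1, and without T15 or without T2 the number called was 2 and 1.

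The fatty acid synthesis and desaturation list had 6 members, all with a positive fold change (median 0.68), of which 2 were called higher. Fatty acid synthase lay at 30.7 to 267 CPM (median 72.4) with Diet 1 and 51.5 to 679 CPM (median 193) with Diet 2 (1.33 ± 0.50), and fatty acid desaturase 2, the first desaturase of long-chain polyunsaturated fatty acid synthesis, went from 412 ± 191 to 733 ± 264 CPM (0.83 ± 0.27). Acyl-CoA desaturase-like, which makes monounsaturated fatty acids, was 1.02 ± 0.56, acetyl-CoA carboxylase 1 was 0.54 ± 0.79, mid1-interacting protein 1-like was 0.24 ± 0.16 and ATP-citrate synthase, the source of cytosolic acetyl-CoA, was 0.23 ± 0.59. Diet 1 replicate 7 held the highest Diet 1 values of the desaturase (1444 CPM against 548 CPM in the next fish) and of ATP-citrate synthase. Without it 4 of the 6 in the fatty acid synthesis and desaturation list were called higher, with log2 fold changes of 1.65 for acyl-CoA desaturase-like and 1.39 for ATP-citrate synthase. It was also 4 without T8, the tag of that fish, and 0 without T15 or without T2.

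Glycerolipid and oxidation contigs went both ways. In the fatty acid activation and glycerolipid synthesis list 1 of 8 was called higher and 2 lower: lipin-1 isoform X2 (0.64 ± 0.29), a phosphatidate phosphatase, long-chain-fatty-acid--CoA ligase 1 (-1.63 ± 0.48) and 2-acylglycerol O-acyltransferase 2 (-0.85 ± 0.36). Lipin-1-like isoform X1 was -0.39 ± 0.19 and may share reads with isoform X2, glycerol-3-phosphate acyltransferase 1, the first step of triglyceride synthesis, was 0.56 ± 0.18 and glycerol-3-phosphate acyltransferase 3-like was -0.28 ± 0.16. Without Diet 1 replicate 7, at 54.9 CPM against 10.9 CPM in the next fish, long-chain-fatty-acid--CoA ligase 1 was at -0.74.

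Of the 10 contigs for fatty acid oxidation and lipolysis, 3 were called higher and 3 lower, and the median was -0.31. Carnitine O-palmitoyltransferase 1, which brings fatty acids into mitochondria, went from 7.56 ± 2.29 to 12.7 ± 4.66 CPM (0.75 ± 0.22). PGC-1-alpha, a coactivator of mitochondrial genes, was 0.79 ± 0.27 and monoacylglycerol lipase ABHD6-like was 0.69 ± 0.30. On the lower side, G0/G1 switch protein 2-like, an inhibitor of adipose triglyceride lipase, went from 54.5 ± 49.8 to 14.7 ± 14.3 CPM (-1.88 ± 0.51), and pyruvate dehydrogenase kinase 2, which holds back the oxidation of pyruvate, from 395 ± 153 to 242 ± 63.8 CPM (-0.70 ± 0.20). ATP-binding cassette sub-family D member 2, a peroxisomal transporter, was -1.03 ± 0.43, and acyl-CoA dehydrogenase family member 11-like (-0.35 ± 0.13) was under the fold threshold. With the exocrine score as a covariate pyruvate dehydrogenase kinase 2 was a DEG (-0.87, adjusted p = 0.0366), and carnitine O-palmitoyltransferase 1 was 0.56 and no longer called.

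In the pentose phosphate pathway list 3 of 7 contigs were called higher, 0 lower and 4 neither, with a median of 0.48. Glucose-6-phosphate 1-dehydrogenase, the entry enzyme that makes NADPH, lay at 134 to 357 CPM (median 235) with Diet 1 and 229 to 582 CPM (median 457) with Diet 2 (0.76 ± 0.19, adjusted p = 0.114), with 8 of 9 fish above the Diet 1 median. Gluconokinase (0.83 ± 0.26) and transaldolase (1.03 ± 0.49) were called higher too, the latter from about 1 CPM. Transketolase-like was 0.48 ± 0.18 and sedoheptulokinase 0.30 ± 0.11, both under the fold threshold, and transketolase was -0.83 ± 0.40. The remaining member, 6-phosphogluconate dehydrogenase, was not called and was added after its values were seen. Its log2 fold change ran from -0.097 to 1.03 over the 18 fits without a single fish, with a call in 1. By T tag its means were 228, 195 and 600 CPM in T15, T7 and T8, and 239, 624 and 333 CPM in T13, T2 and T6. Without T2 none of the 7 was called higher in the pentose phosphate pathway list, by edgeR.

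In the glucose and glycogen metabolism list 1 of 10 was called higher and 3 lower, with a median of -0.05. Protein phosphatase 1 regulatory subunit 3G, which brings the phosphatase to glycogen and promotes glycogen synthesis in mouse liver, lay at 198 to 484 CPM (median 279.6) with Diet 1 and 87.4 to 224 CPM (median 162) with Diet 2. All 9 fish were under the Diet 1 median (-0.81 ± 0.18, adjusted p = 0.0842). PFKFB4-like, an enzyme that sets the level of fructose 2,6-bisphosphate and so the rate of glycolysis, went from 116.3 ± 57.3 to 37.6 ± 21.1 CPM (-1.63 ± 0.36, adjusted p = 0.0842), again with all 9 fish under that median. Sodium/glucose cotransporter 5, a sugar transporter of the kidney in mammals, lay at 0.359 to 7.54 CPM (median 3.71) with Diet 1 and 0.244 to 1.26 CPM (median 0.590) with Diet 2, that is, from low counts (-2.52 ± 0.50, adjusted p = 0.0683). These 3 were DEGs without Diet 1 replicate 7 (adjusted p 0.0109 to 0.0378). Inositol-3-phosphate synthase 1, which draws glucose 6-phosphate into inositol, was the member called higher (0.89 ± 0.28), PFKFB3 was 1.26 ± 0.74 and the liver glucose transporter (glucose transporter member 2) -0.22 ± 0.14.

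Part of the contigs of protein folding and translocation in the endoplasmic reticulum were called lower. Of 16 tested members of the endoplasmic reticulum folding and translocation list, 15 had a negative fold change, 8 were called lower and 1 higher, and the median was -0.62; 10 members of this list came from the authors' table for this comparison. Sec61 subunit beta, of the channel that takes new proteins into the reticulum, lay at 639 to 1188 CPM (median 864) with Diet 1 and 412 to 689 CPM (median 525) with Diet 2 (-0.64 ± 0.14, adjusted p = 0.0842). Calnexin-like, a chaperone of glycoproteins, went from 25.1 ± 8.37 to 14.97 ± 3.48 CPM (-0.75 ± 0.19). Solute carrier family 35 member B1 (-0.64 ± 0.19), which brings ATP into the reticulum, and FICD (-0.69 ± 0.22), which modifies the chaperone BiP, were called lower as well. Translocon-associated protein subunit delta was -0.51 ± 0.15, under the fold threshold. The chaperone 78 kDa glucose-regulated protein (BiP, -0.90 ± 0.42), protein disulfide-isomerase A6 (-0.82 ± 0.34) and the co-chaperones dnaJ homolog subfamily C member 3 (-0.65 ± 0.31) and dnaJ homolog subfamily B member 11 (-0.62 ± 0.26) make up the rest of the 8 and were named after their values were seen. The one called higher was tail-anchored protein insertion receptor WRB (0.60 ± 0.20).

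With the exocrine score as a covariate 2 of the 16 in the endoplasmic reticulum folding and translocation list were called lower. The log2 fold changes were then -0.61 for Sec61 subunit beta and -0.78 for calnexin-like, close to the -0.64 and -0.75 without the score. That of adenosine monophosphate-protein transferase FICD was -0.36 against -0.69 without it. A link between the score and the list was not tested. The number called lower was 2, 4 and 3 when replicate 1, 3 or 7 of Diet 1 was left out, and 5 when replicate 3 or 6 of Diet 2 was. By T tag the mean log2 level was 6.03 to 6.2 with Diet 1 and 5.48 to 5.86 with Diet 2. Single fish overlapped widely, at 5.41 to 6.82 with Diet 1 and 5.25 to 6.15 with Diet 2. Tag means lay apart in other lists as well, for example growth factors and immediate regulators (3.82 to 3.87 against 3.22 to 3.58).

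**Figure D3:**
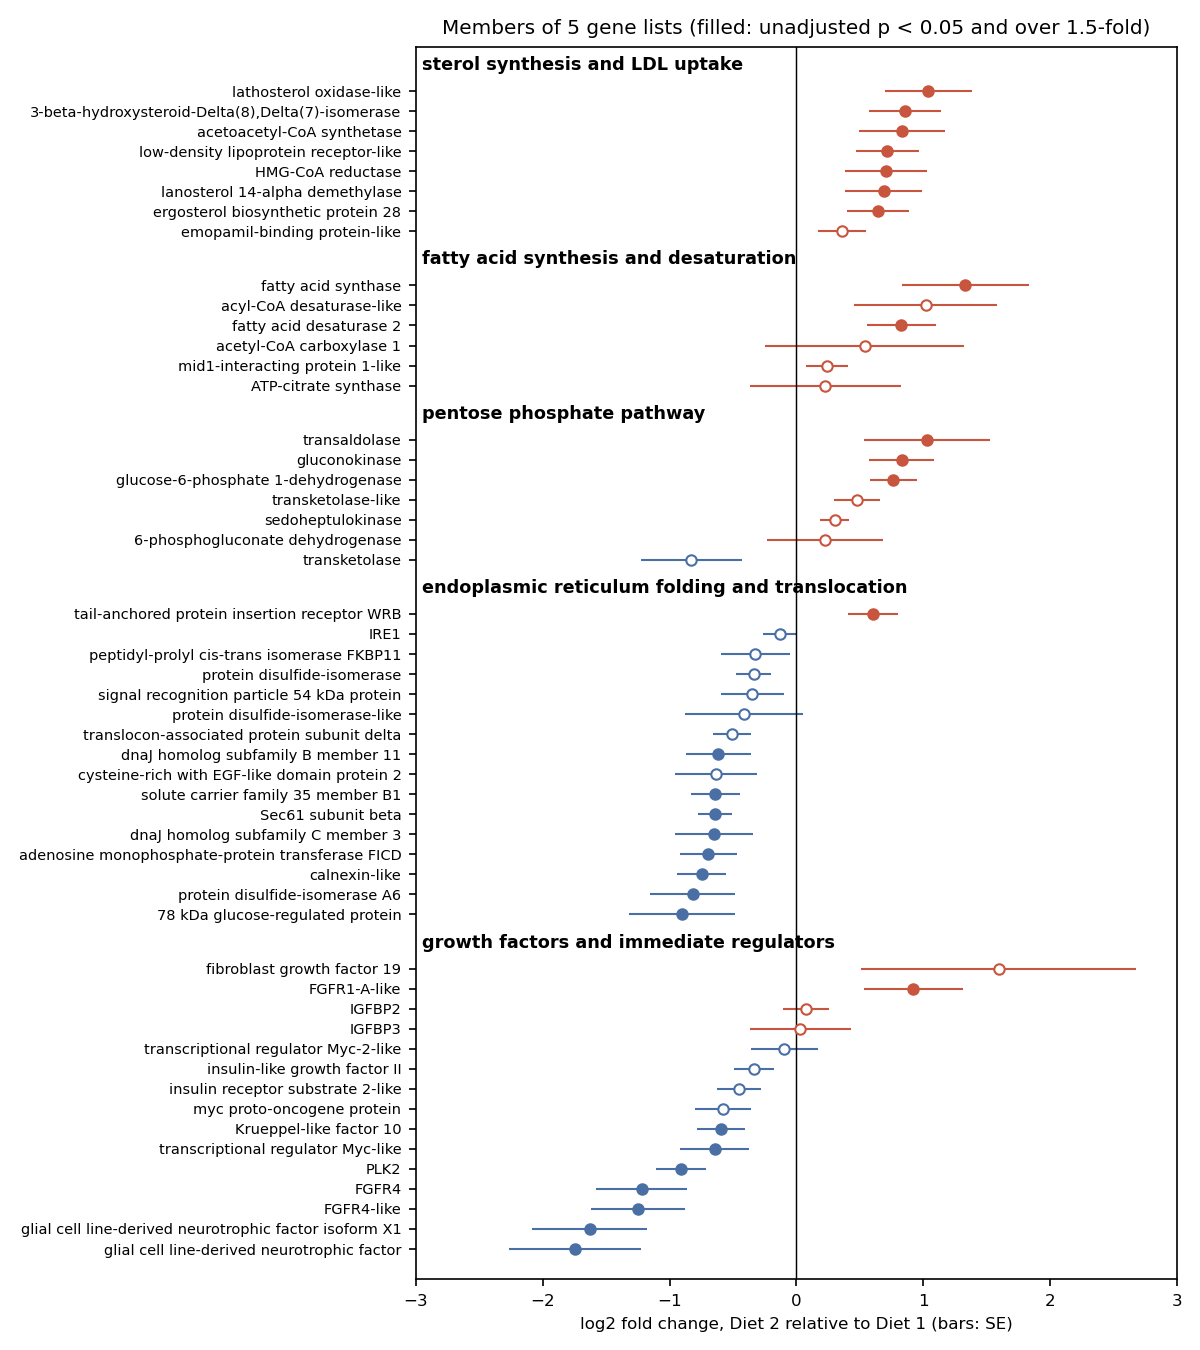
Log2 fold change of Diet 2 relative to Diet 1 with its SE for each tested member of the lists for sterol synthesis and LDL uptake, fatty acid synthesis and desaturation, the pentose phosphate pathway, endoplasmic reticulum folding and translocation, and growth factors and immediate regulators. Filled points passed the unadjusted call (p under 0.05 and over 1.5-fold), of which there are 7 higher in the sterol list and 8 lower in the endoplasmic reticulum list; red is above 0 and blue below.

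Genes of mitosis were higher in part of the fish fed Diet 2. Of the 29 members of the mitosis list, 28 of which the authors listed for this same comparison, 24 were called higher and 2 lower, and the median was 1.01, with adjusted p-values of 0.256 or more. Forkhead box protein M1, which drives transcription for mitosis, lay at 0.575 to 2.86 CPM (median 1.43) with Diet 1 and 1.52 to 8.67 CPM (median 2.49) with Diet 2 (1.30 ± 0.40). The mitotic kinase PLK1 went from 7.04 ± 3.58 to 16 ± 9.51 CPM (1.19 ± 0.38), and Nek2, of the centrosome, was 1.34 ± 0.46. Borealin, of the complex that guides chromosome segregation, was 1.09 ± 0.34, and cyclin-dependent kinase inhibitor 3, a phosphatase, was 1.35 ± 0.44. Cytoskeleton-associated protein 2-like (-0.70 ± 0.22) and centromere protein F-like (-1.32 ± 0.61) were called lower, and centromere protein F-like was -0.19 with the exocrine score as a covariate. Kinases and cyclins of the division cycle named after their values were seen were aurora kinase A (1.05 ± 0.36), cyclin-B1 (0.83 ± 0.40) and cyclin-B2-like (1.10 ± 0.46).

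The levels differed between T tags within each diet as well as between the diets. The mean log2 level of the mitosis list was 1.61 in T15, 2.21 in T7 and 2.42 in T8 with Diet 1, and 1.98 in T13, 2.99 in T2 and 3.20 in T6 with Diet 2. T13 was thus under both T7 and T8 of the control. In PLK1 the 3 fish of T13 lay at 6.496, 2.77 and 8.80 CPM, under the highest Diet 1 fish at 13.8 CPM, and the 3 of T6 at 29.1, 19.3 and 22.3 CPM, above that fish. In the mitosis list 13 were called higher when Diet 2 replicate 4 was left out, 15 when Diet 2 replicate 7 was, and 15 with the T tag sums. Without T15 the number was 4, without T6 it was 3 and without T2 it was 10. The number of mitosis contigs called thus fell most when T15, T2 or T6 was left out.

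**Figure D4:**
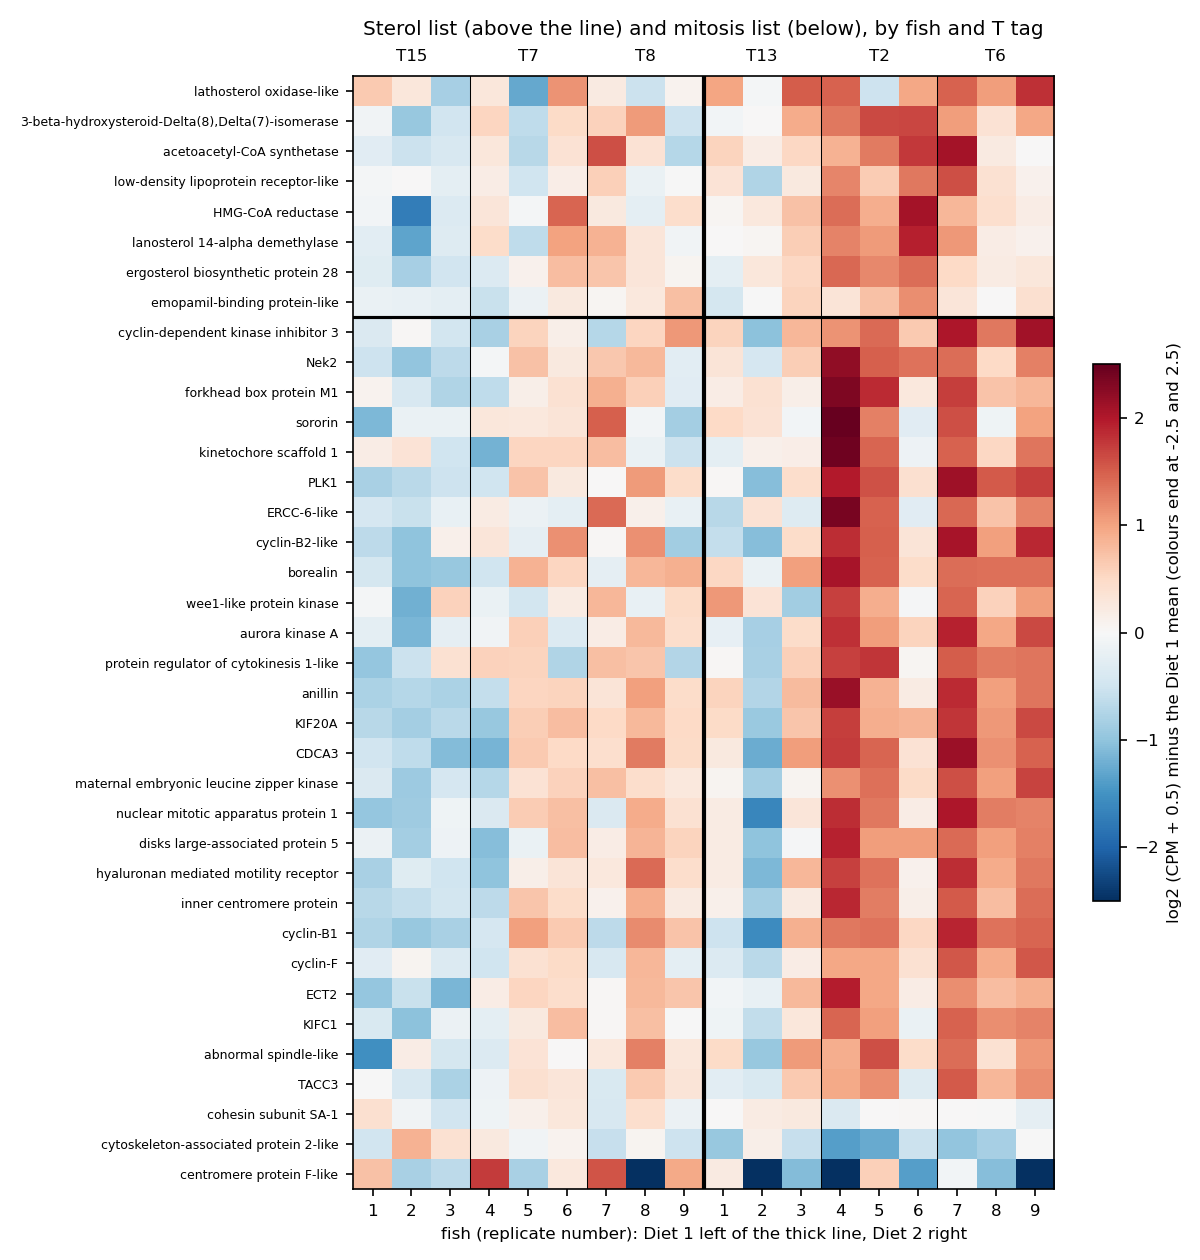
Level of each member of the sterol list (above the line) and the mitosis list (below) in each fish, as log2 of CPM plus 0.5 minus the Diet 1 mean of that contig, with Diet 1 left and Diet 2 right of the thick line and the T tags marked above. Colours end at -2.5 and 2.5; Diet 2 replicates 4 and 7 are high in most mitosis contigs and the 3 fish of T13 are not.

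In the DNA replication list 1 of 11 was called higher, replication factor A protein 1-like (1.06 ± 0.38), and the median was 0.42. Others were tonsoku-like protein (0.91 ± 0.61), WDHD1 (0.73 ± 0.54), deoxycytidine kinase (0.60 ± 0.49), ribonucleoside-diphosphate reductase subunit M2 (0.26 ± 0.24) and UHRF2 (-0.23 ± 0.13). Diet 1 replicate 7 had 13.5 CPM of WDHD1 against 2.51 CPM in the next fish of Diet 1. Without it 7 of the 11 in the DNA replication list were called higher and the median was 1.2. The DNA replication and mitosis lists were not tested against each other.

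Glutathione and nitrogen metabolism went both ways. In the glutathione and redox list 3 of 14 were called higher and 3 lower (median 0.25). The regulatory subunit of glutamate-cysteine ligase, the rate-limiting enzyme of glutathione synthesis (glutamate--cysteine ligase regulatory subunit), went from 30.1 ± 10.1 to 47.9 ± 15.9 CPM (0.67 ± 0.20), glutathione S-transferase was 0.65 ± 0.20 and glutathione S-transferase omega-1 was 0.65 ± 0.18. In all 3 every fish of Diet 2 was above the Diet 1 median, and Diet 2 replicate 4 was the highest fish. Without that fish the log2 fold changes were 0.49 for glutamate--cysteine ligase regulatory subunit, 0.45 for glutathione S-transferase and 0.49 for glutathione S-transferase omega-1, and 0 of the 14 in the glutathione and redox list were called higher by edgeR, since all 3 came under 1.5-fold. Glutathione synthetase, the second enzyme of the pathway, was 0.50 ± 0.14.

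The enzyme that breaks glutathione down (glutathione-specific gamma-glutamylcyclotransferase 1-like) lay at 104 to 841 CPM (median 291) with Diet 1 and 8.35 to 509.7 CPM (median 21.8) with Diet 2 (-1.88 ± 0.67, adjusted p = 0.335). In Diet 2, 8 of 9 fish lay at 102 CPM or less, under the lowest fish of Diet 1 at 104 CPM, and replicate 2, the fish with the least pancreatic RNA, lay at 509.7 CPM. With the exocrine score as a covariate it was a DEG (-3.78, adjusted p = 0.00266), and it was one without Diet 2 replicate 2 as well (-3.18, adjusted p = 0.0073). Glutathione peroxidase 3 (-1.41 ± 0.64) and NADPH oxidase 1 (-0.59 ± 0.27) were the other 2 called lower, and glutathione peroxidase 3 was -0.59 and not called with the exocrine score as a covariate.

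In the amino acid nitrogen, creatine and taurine metabolism list 3 of 13 were called higher and 3 lower (median 0.02). The acidic amino acid decarboxylase GADL1, which makes beta-alanine and hypotaurine in mammals, lay at 309 to 974 CPM (median 615) with Diet 1 and 843 to 1714 CPM (median 1245) with Diet 2 (0.95 ± 0.23, adjusted p = 0.111). 2-aminoethanethiol dioxygenase-like, which makes hypotaurine from cysteamine, went from 12.9 ± 2.63 to 22.99 ± 9.21 CPM (0.82 ± 0.19, adjusted p = 0.102). All 9 fish of Diet 2 were above the Diet 1 median in both of these contigs, which were picked by their small p. Taurine itself was not measured. Urea transporter 2-like, the third called higher, was 0.65 ± 0.31 and was named after its value was seen.

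Glutamate dehydrogenase, which releases ammonia from glutamate, went from 2212 ± 447 to 1531 ± 156 CPM (-0.53 ± 0.11, adjusted p = 0.0842), all 9 fish being under the Diet 1 median. It was under 1.5-fold with all fish and a DEG without Diet 1 replicate 7 (-0.59, adjusted p = 0.0142). Arginase-2, an enzyme that splits arginine (-1.56 ± 0.46), guanidinoacetate N-methyltransferase, the last enzyme of creatine synthesis (-1.23 ± 0.39), and glutaminase kidney isoform (-0.90 ± 0.43) were called lower. After adding the exocrine score to the model arginase-2 was -0.56, guanidinoacetate N-methyltransferase -0.33 and glutaminase kidney isoform -0.18, so that none of the 3 was called. Ammonium transporter Rh type B-like was 0.39 ± 0.17.

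Immune contigs showed no common direction. In the complement list 2 of 8 were called higher, complement C1r-like (0.73 ± 0.22) and complement factor H-related protein 4-like (0.93 ± 0.33), and 2 lower, complement C1q-like protein 2 (-1.23 ± 0.41) and complement decay-accelerating factor (-1.83 ± 0.62), an inhibitor of complement on cells. Complement C4-like (0.53 ± 0.17) and complement factor H-like (0.44 ± 0.18) were not called, though all 9 fish of Diet 2 were above the Diet 1 median in each, and complement C5 was 0.077 ± 0.11. Of 14 immune receptors and mediators 3 were called higher and 4 lower. The higher ones were interleukin-12 receptor subunit beta-2-like (0.79 ± 0.30), the chemokine receptor CXCR2-like (0.93 ± 0.38) and immunoglobulin tau heavy chain (0.89 ± 0.35), the heavy chain of a mucosal antibody of fishes, which was 0.40 without Diet 2 replicate 1. By T tag CXCR2-like averaged 0.833 to 1.56 CPM with Diet 1 and 1.68 to 3.28 CPM with Diet 2. In the paper's RT-qPCR this contig was lower with Diet 2, the reverse of the direction here. For PLK2 and glutathione S-transferase omega-1, also called here, the direction by RT-qPCR was the same as here. The lower ones were signal-regulatory protein beta-1 (-0.64 ± 0.22), stimulator of interferon genes protein (-0.64 ± 0.26), leukotriene B4 receptor 1-like (-1.11 ± 0.46) and arachidonate 5-lipoxygenase-like (-0.68 ± 0.31), the last 2 of leukotriene signalling. The exocrine score as a covariate ended the calls of complement C1q-like protein 2 (-0.59), signal-regulatory protein beta-1 (-0.55), stimulator of interferon genes protein (-0.56) and arachidonate 5-lipoxygenase-like (-0.33).

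In the growth factors and immediate regulators list 7 of 15 contigs were called lower, 1 higher and 7 neither, with a median of -0.58. PLK2, an early response kinase, lay at 42.5 to 92.2 CPM (median 56.5) with Diet 1 and 21.1 to 61.3 CPM (median 31.4) with Diet 2 (-0.91 ± 0.20, adjusted p = 0.0842). PLK2 was a DEG once the exocrine score was a covariate (-1.16, adjusted p = 0.00266). The 2 contigs of fibroblast growth factor receptor 4, through which bile acid synthesis is restrained in mammals, went from 8.56 ± 4.62 to 3.69 ± 2.08 CPM (FGFR4, -1.22 ± 0.36) and from 15.6 ± 9.58 to 6.59 ± 3.88 CPM (FGFR4-like, -1.25 ± 0.37). The 2 contigs of glial cell line-derived neurotrophic factor were -1.63 ± 0.45 for isoform X1 and -1.75 ± 0.52 for the other, from a mean of about 3 CPM. Within each pair reads may be shared, so that a pair counts as 1 observation. Krueppel-like factor 10 was -0.59 ± 0.19, and FGFR1-A-like was the one called higher (0.92 ± 0.39).

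Of the 7 contigs of the iron handling list 2 were called higher. Solute carrier family 40 member 1, the iron exporter ferroportin, lay at 1641 to 3275 CPM (median 2875) with Diet 1 and 1427 to 6306 CPM (median 4381) with Diet 2 (0.76 ± 0.20). In Diet 2, 8 fish were at 3884 CPM or more, above all fish of Diet 1, and replicate 7 was at 1427 CPM. Hepcidin, the hormone that removes ferroportin from the membrane, showed the reverse in that fish, with 142 CPM against at most 19.2 CPM in the other 8, and its fold change was -1.41 ± 0.76, not called. Without Diet 2 replicate 7 hepcidin was called lower (-2.83, adjusted p = 0.108), and without Diet 1 replicate 7 as well (-1.57). Erythroferrone-like, which lowers hepcidin in mammals, was the other one called higher (0.73 ± 0.26), and ferritin middle subunit (0.48 ± 0.21), transferrin receptor protein 1 (0.21 ± 0.11), ceruloplasmin (0.25 ± 0.14) and hepcidin 2 variant 2 (0.59 ± 0.30) were not called. Without Diet 2 replicate 7 solute carrier family 40 member 1 was a DEG (0.88, adjusted p = 0.0121), and with the exocrine score as a covariate it was 0.56 and not called.

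Of the hepatocyte markers, warm-temperature-acclimation-related 65-kDa protein, a heme-binding plasma protein of fishes, was 0.46 ± 0.14 and alpha-2-HS-glycoprotein-like -0.35 ± 0.16, both under the fold threshold. The other values were 0.57 for haptoglobin-like, 0.72 for angiopoietin-related protein 3-like, 0.22 for apolipoprotein C-I-like and 0.017 for heparin cofactor 2, besides complement C5 and ceruloplasmin given above.

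Diet 3 held the same 15% of fish meal as Diet 2, with poultry by-product meal in place of part of the soybean meal, and none of its fish are in the comparison above. Diet 3 also held more wheat and less canola oil than Diet 2, so the parts of these ingredients cannot be told apart here either. With Diet 2 relative to Diet 3, 4 of 9130 contigs were DEGs (0.0438%). Tetraspanin-18-like isoform X2 was -1.85 ± 0.23 (adjusted p = 0.000435), matrix metalloproteinase-16-like isoform X1 3.93 ± 0.70 (adjusted p = 0.0341), Carbonic anhydrase 1 -2.36 ± 0.37 (adjusted p = 0.0106) and Krueppel-like factor 10 -0.75 ± 0.094 (adjusted p = 0.000435). The Diet 2 fish are common to both comparisons, so the values stand side by side and are not independent of each other.

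Disabled homolog 2 was 0.84 ± 0.17 relative to Diet 3 (adjusted p = 0.0654), alpha-N-acetylglucosaminidase 0.43 ± 0.11 and granulins isoform X1 0.36 ± 0.098, with adjusted p-values of 0.244 and 0.282 for the last 2. FGFR4 (-1.90 ± 0.37) and FGFR4-like (-1.97 ± 0.38) had an adjusted p of 0.0636. Glucose-6-phosphate 1-dehydrogenase was 0.094 ± 0.18 and pancreatic lipase 0.015 ± 0.57.

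**Figure D5:**
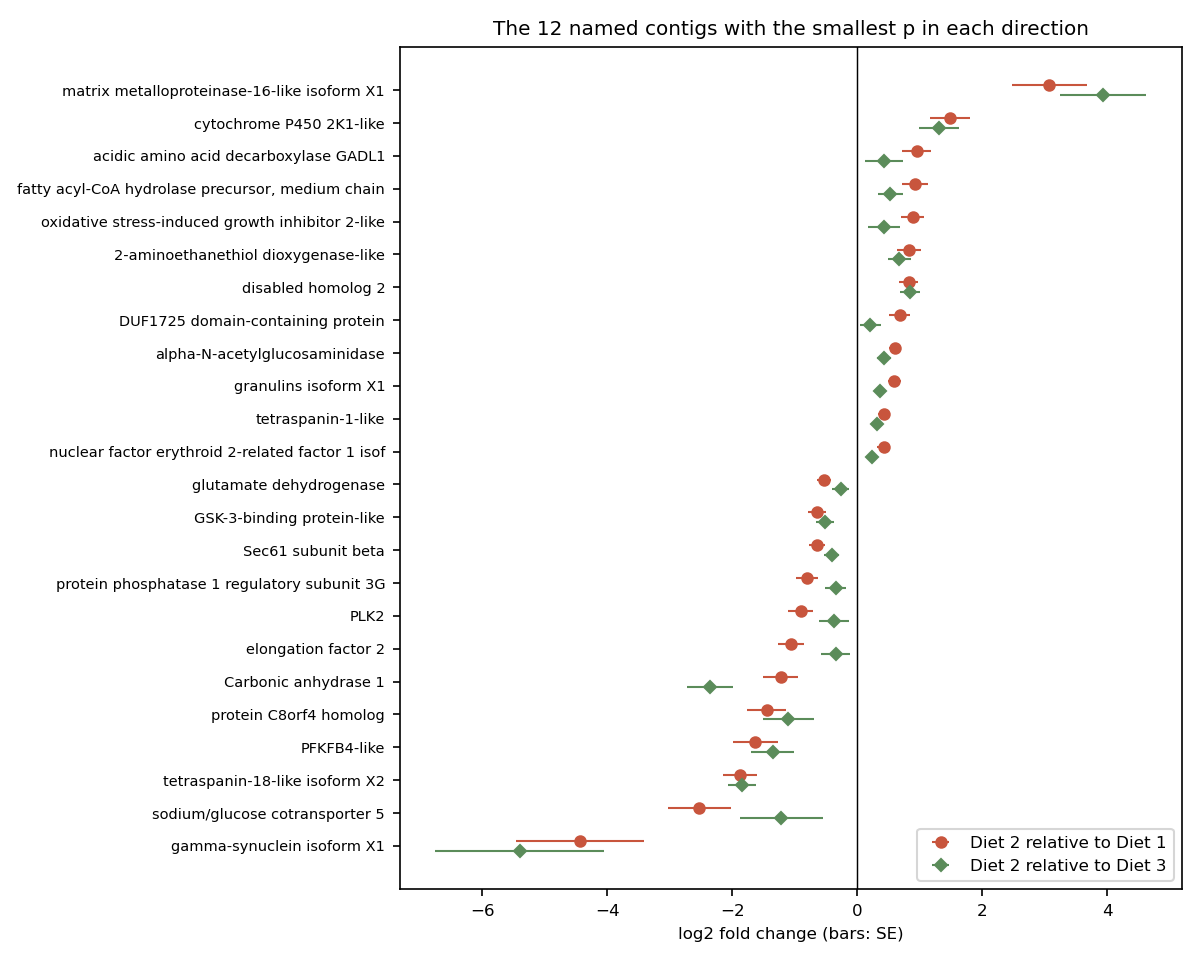
Log2 fold changes with their SE for the 12 named contigs with the smallest p in each direction with Diet 2 relative to Diet 1 (circles), and for the same contigs with Diet 2 relative to Diet 3 (diamonds). Both comparisons hold the same 9 Diet 2 fish; the circles were chosen by their p, and tetraspanin-18-like isoform X2 is at -1.87 relative to Diet 1 and -1.85 relative to Diet 3.

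Diets 4, 5 and 6 were all free of fish meal. Diet 4 held poultry by-product meal and soybean meal, Diet 5 plant proteins alone, and Diet 6 a commercial protein blend with soybean meal. All were compared with the same Diet 1 fish. Tetraspanin-18-like isoform X2 was -0.046 ± 0.30, -0.37 ± 0.31, -2.83 ± 0.41 and -0.95 ± 0.30 for Diets 3, 4, 5 and 6 relative to Diet 1. Alpha-N-acetylglucosaminidase was 0.16 ± 0.10, 0.13 ± 0.097, 0.68 ± 0.13 and -0.14 ± 0.10 in the same order. For granulins isoform X1 the values were 0.22 ± 0.095, 0.34 ± 0.13, 0.83 ± 0.12 and 0.60 ± 0.13, and for disabled homolog 2 -0.035 ± 0.18, 0.18 ± 0.14, 0.62 ± 0.26 and -0.47 ± 0.21. All of these comparisons share the Diet 1 fish, and Diet 5 replicate 7 was left out of them because its library holds 755 counts.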

How the data were processed

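Liver RNA of 54 fish on 6 diets was sequenced by the authors, who trimmed the reads with Trim Galore 0.6.5 and cutadapt 2.7, aligned them with Bowtie2 2.3.4.1 to a transcriptome of 20914 contigs and quantified each contig with eXpress 1.5.1 (versions from the submitters' processing notes). The deposited values are the authors' estimated counts per contig from eXpress, written as whole numbers and not normalized. The authors compared diets with DESeq2 1.24.0, and their comparison columns were not used. Reads that fit several contigs are shared out by the estimate, so that close copies of a gene are not independent. Genome coordinates, contig sequences and the strand setting are not given in the sources used here. Names were taken from the supplementary tables, in which the authors listed contigs called in these libraries, 978 in all, of which 971 were tested and 293 came from the table for Diet 2; the other contigs carry only their identifier.

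Counts of the 9 Diet 2 and 9 Diet 1 libraries were compared in R 4.3.3 by quasi-likelihood F-tests (edgeR 4.0.16, TMM scaling) over the contigs averaging 5 counts or more, with Benjamini-Hochberg adjustment over all contigs tested. Thresholds were an adjusted p of 0.05 and 1.5-fold, those of the paper's methods. The paper lists 293 DEGs for this comparison by DESeq2, against 41 by DESeq2 and 4 by edgeR here at these thresholds. However, the paper's table of DEG counts gives a p under 0.05 and names no adjustment. The numbers of DEGs are thus not plainly at 1 threshold. The unadjusted call by edgeR here passed 284 contigs. The reason for the difference was not tested. The standard error is the absolute log2 fold change over the root of F, and per-fish log2 levels used a prior of 0.5 CPM. The fit was tested on simulated data before use. The contigs named were the 12 with the smallest p in each direction and the members of 23 lists, with the 2 unnamed contigs of smallest p in each direction; where a list was long, members were chosen by p and the rest counted. The comparison, the lists and the names were chosen with earlier results of these data known. For the exocrine score the log2 CPM of 7 pancreatic markers were averaged.

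Alternatives were DESeq2 1.42.0 (a missing adjusted p was kept as missing), its size factors, other filters on low counts, all diets in 1 fit, a replicate block, sums over T tags, a term for the L tag of the library name, no fold threshold, robust dispersions, limma 3.58.1 voom with T tags as blocks, the exocrine score as a covariate and each fish left out. Leaving out the 2 insulin-positive fish, the 2 fish of lowest exocrine score or each T tag, and the settings for Diet 2 against Diet 3, were chosen after seeing the data. Replicates are separate fish. Diet 5 replicate 7, with 755 counts, was not used.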

Additional observations from a re-analysis of the deposited data

Results flagged for a closer look

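Among 296 sets of 9 values (the named contigs in each diet), 41 had a highest or lowest fish whose gap to the next exceeded the critical value of Dixon's test at 95%. For normally distributed values about 1 in 20 sets would be flagged by chance. CPM values can be skewed and the sets share the same fish, so 1 in 20 is no measure for the 41. Diet 1 replicate 7 accounted for 17, Diet 2 replicate 7 for 6, and Diet 2 replicates 2 and 4 for 3 each. Values are CPM, with that of the next fish of the same diet in parentheses.

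Diet 1 replicate 7 held the highest value of its group with 80.8 CPM of gamma-synuclein isoform X1 (16.2), 39.5 CPM of acetoacetyl-CoA synthetase (16.4), 1443.6 CPM of acyl-CoA desaturase-like (548), 316.2 CPM of ATP-citrate synthase (47.2) and 54.9 CPM of long-chain-fatty-acid--CoA ligase 1 (10.9). It was also the highest with 5.25 CPM of 2-acylglycerol O-acyltransferase 2 (3.07), 8.49 CPM of lipin-1 isoform X2 (5.05), 22.5 CPM of transketolase (13.1), 3.43 CPM of PFKFB3 (0.966) and 6.2 CPM of tonsoku-like protein (1.08). It was also the highest with 13.5 CPM of WDHD1 (2.51), 40.7 CPM of ribonucleoside-diphosphate reductase subunit M2 (20.7) and 2533 CPM of glutathione S-transferase (1633.7). The lowest of the group in the same fish were 501.5 CPM of glucose transporter member 2 (898.1), 58.6 CPM of Krueppel-like factor 10 (189.4), 543.1 CPM of ferritin, middle subunit (1496.8) and 3222.8 CPM of heparin cofactor 2 (4807.5). The highest fish of its group was Diet 2 replicate 7 with 51.7 CPM of G0/G1 switch protein 2-like (14.8), 142.1 CPM of hepcidin (19.2), 3.94 CPM of Nkx-6.1 (0.976) and 1438.6 CPM of haptoglobin-like (777.2). The lowest of the group in the same fish were 34.6 CPM of sedoheptulokinase (48.6) and 1427.2 CPM of solute carrier family 40 member 1 (3884). A high value set Diet 2 replicate 2 apart from its group with 564.2 CPM of cytochrome P450 2K1-like (276.5), 509.7 CPM of glutathione-specific gamma-glutamylcyclotransferase 1-like (102.5) and 3.93 CPM of complement decay-accelerating factor (1.95). Diet 2 replicate 4 held the highest value of its group with 7.93 CPM of tonsoku-like protein (4.07), 86.9 CPM of glutamate--cysteine ligase regulatory subunit (52.7) and 4309.5 CPM of glutathione S-transferase (2788.2). The highest fish of its group was Diet 1 replicate 2 with 222.5 CPM of lipin-1-like isoform X1 (140.1) and 840.9 CPM of glutathione-specific gamma-glutamylcyclotransferase 1-like (383.2). A high value set Diet 2 replicate 1 apart from its group with 8.12 CPM of interleukin-12 receptor subunit beta-2-like (4.89) and 20.7 CPM of immunoglobulin tau heavy chain (7.06). Diet 2 replicate 5 held the highest value of its group with 73.8 CPM of tail-anchored protein insertion receptor WRB (48.8) and 98 CPM of complement C1r-like (63.9). The highest fish of its group was Diet 1 replicate 1 with 1346.3 CPM of haptoglobin-like (491.4). A high value set Diet 1 replicate 3 apart from its group with 72.6 CPM of vitellogenin B (31.6). Diet 1 replicate 4 held the highest value of its group with 1.59 CPM of claudin-15-like (0). The highest fish of its group was Diet 1 replicate 8 with 37445.5 CPM of alpha-2-HS-glycoprotein-like (27559.4). A high value set Diet 2 replicate 6 apart from its group with 525 CPM of lanosterol 14-alpha demethylase (321.9). Diet 2 replicate 8 held the highest value of its group with 1.87 CPM of ATP-binding cassette sub-family D member 2 (0.893).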

How the results depend on the processing

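The number of DEGs between Diet 2 and Diet 1 (4 with edgeR) was 41 with DESeq2, 10 with all diets in 1 fit, 14 with the L tag as a covariate, 10 with the exocrine score as a covariate and 0 with T tag sums (310 contigs past the unadjusted call). Among settings chosen after seeing the data it was 13 without the 2 insulin-positive fish, 34 without the 2 fish of lowest exocrine score, 27 without T8, 9 without T13, 1 without T7 and 0 without T15, T2 or T6, where 264, 253 and 263 contigs passed the unadjusted call. Leaving out single fish gave 1 to 47 DEGs. The number of unadjusted calls (284, or 3.11% of 9130) was 448 with DESeq2 and 1449 with no filter on low counts (8.95% of 16182). DESeq2 was run without the filter on all 20914 contigs, some without any count, so no share of contigs tested is given for it. The number of unadjusted calls was 857 with no fold threshold (9.39%), 441 without T8 (4.84%), and 247 (2.71%) to 418 (4.6%) with single fish left out. Of the 284 calls 50.7% were higher, against 63.0% with the exocrine score as a covariate, 70.9% without the insulin-positive fish, 70.1% without Diet 1 replicate 7, 68.3% without T8, 39.2% without Diet 2 replicate 4 and 36.4% without T2. With the replicate block 2 contigs were DEGs, neither of them among the 4, and 304 passed the unadjusted call. Same-numbered fish correlated at -0.26 to 0.32 in their deviations from the diet means and 3 of 9 correlated best with their own number. No pairing by number was assumed in the main fit, and whether the numbers share a factor was not tested. DEGs between Diet 2 and Diet 3 (4) were 24 with DESeq2, 0 with T tag sums and 3 to 7 with single fish left out, 7 without Diet 3 replicate 7. The ratio of mean library totals was 0.999 with Diet 1 replicate 6 left out and 0.992 with Diet 2 replicate 1 left out (0.992 to 1.08 over all single fish). The cause of these shifts was not tested. Other filters, the size factors of DESeq2, the robust fit and limma with the T tag as a block (correlation 0.00326) gave 3 or 4 DEGs. Of 3636 values of the 94 named contigs past the unadjusted call under 39 settings, 3172 kept call and direction, 464 kept the direction only and 0 reversed. These contigs were picked by p and fold in the same libraries, which every setting reuses in full or in part. A reversal was thus unlikely from the start, and the counts give no independent support.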
